A study of Mus musculus with 2 samples.

Results

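The genes described here are 8 sterol-regulated genes of cholesterol synthesis and its control, Hmgcs1, Idi1, Fdft1, Sqle, Lss, Cyp51, Insig1 and Srebf2, out of 28692 genes counted. They were chosen by name, as genes controlled by sterols, and not by their values. All 8 were detected. None of them is a receptor for lipoprotein uptake, so the values below are about synthesis and its control. They were measured by single-cell RNA sequencing of the stromal vascular fraction (SVF) of gonadal white adipose tissue (gWAT), the cells left after collagenase digestion and removal of the floating adipocytes. One library came from Adipo-Pgam1 KO mice (Adipoq-Cre with floxed Pgam1, labelled Pgam1 knockout) and one from littermate controls, which the labels call wildtype and the study describes as floxed mice without Cre. Both were from male C57BL/6 mice of 13 weeks of age, and how many mice went into each library is not given in the sources used here. The Adiponectin promoter drives Cre in adipocytes, and mature adipocytes are largely lost from an SVF, so most cells described here lie outside the cells in which Pgam1 was targeted.

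Cells make cholesterol from acetyl-CoA through the mevalonate pathway. When sterols in the endoplasmic reticulum are low, SCAP escorts the membrane-bound transcription factor SREBP-2 to the Golgi, where 2 proteases release its active part, which then switches on the enzymes of the pathway together with its own gene. When sterols are plentiful, INSIG proteins hold SCAP and SREBP-2 back in the endoplasmic reticulum. RNA levels of the target enzymes are therefore widely used as a readout of SREBP-2 activity, and in adipose tissue, which stores much of the body's free cholesterol, the pathway is usually studied in adipocytes rather than in stromal and immune cells.

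After barcodes with fewer than 500 detected genes or over 10% mitochondrial UMIs and likely doublets were removed, 3616 control and 937 KO cells remained, with 30429137 and 9507548 UMIs (unique molecular identifiers, each standing for 1 captured RNA molecule). The median was 6898 UMIs per control cell and 7494 per KO cell. The libraries shared 9 cell barcodes in all and 0 among the cells kept. Cells of both libraries were clustered together without the sterol genes, and clusters were called fibroblast-like and so on from marker genes. In 11 classes there were enough cells in both libraries (at least 50 control and 20 KO cells). Each marker of a class's own list had at least 1 UMI there in both libraries. This does not set classes apart, since control fibroblast-like cells also held UMIs of all 7 macrophage and all 7 NK markers. In the ILC2-like cluster, 4 of the 7 ILC2 markers were found in at least 10% of cells. Levels are given as CPM, the UMIs of a gene per 1000000 UMIs of the same cells, with exact 95% Poisson intervals in parentheses. Differences are log2 ratios of KO over control CPM with exact 95% intervals. All intervals cover counting error only. With 1 library for each genotype there was no replicate and no test, so a ratio compares these libraries and not the genotypes. Pgam1 itself had 4254 UMIs, 99.3 CPM (96.3 to 102), over all control barcodes and 1264 UMIs, 91.5 CPM (86.5 to 96.6), over all KO barcodes. Counts from transcript 3′ ends do not show which exons are deleted, so this checks the labels only weakly. The median number of UMIs per cell was higher in the KO library in 11 of the 11 classes, and ratios with each cell thinned to 2000 UMIs are given beside the class differences. Thinning draws UMIs at random, and each thinned ratio is from 1 draw.

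The members follow the order of the pathway. Hmgcs1 (chr13:119690379-119708260, plus strand, GRCm38) encodes the cytosolic HMG-CoA synthase that feeds the mevalonate pathway. Idi1 (chr13:8885501-8892451, plus) encodes isopentenyl-diphosphate isomerase. Fdft1 (chr14:63145150-63179578, minus) encodes squalene synthase, the first step committed to sterols, and Sqle (chr15:59315077-59331192, plus) encodes squalene epoxidase, a rate-limiting step. Lss (chr10:76531588-76557138, plus) encodes lanosterol synthase, which closes the sterol rings, and Cyp51 (chr5:4081145-4104746, minus) the lanosterol demethylase that follows it. Insig1 (chr5:28071363-28078662, plus) encodes the sterol-sensitive anchor of SCAP. Srebf2 (chr15:82147181-82205379, plus) encodes SREBP-2. On the same strand as Srebf2 the annotation places Mir33 and Gm49502, so reads of these overlapping genes cannot be told apart with certainty. Fdft1, Cyp51, Lss, Hmgcs1 and Idi1 overlap a gene on the other strand only, which a stranded protocol keeps apart.

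RefSeq promoters (GRCm38.p6) were at hand for 6 of the 8 members. In the 250 bases before the start, the classical sterol regulatory element TCACNCCAC, searched on both strands, was found in 1 of the 6, Hmgcs1, and in 1.05% of 32851 promoters. The variant TCACNCCAT was found in Srebf2 and in 0.682% of all promoters. CCAAT, the motif bound by NF-Y, which acts beside SREBP at many sterol genes, was found on either strand in 6 of 6 members and in 33.8% of all promoters, and GGGCGG, the core of Sp1 sites, in 6 of 6 and in 32.7%. No match overlapped another in the members. A match is a description of letters and not of a bound site. The 2 members that hold a sterol element are shown with Lss, which holds none. Idi1, Insig1 and Cyp51 hold none either, so the absence of a match does not set Lss apart. Each stretch is written 5′ to 3′ on the gene's strand, from position -200 counted from the RefSeq start up to the start that either annotation places first, with sterol elements and CCAAT, read on either strand, in capitals.
Hmgcs1, chr13:119690151-119690350, plus: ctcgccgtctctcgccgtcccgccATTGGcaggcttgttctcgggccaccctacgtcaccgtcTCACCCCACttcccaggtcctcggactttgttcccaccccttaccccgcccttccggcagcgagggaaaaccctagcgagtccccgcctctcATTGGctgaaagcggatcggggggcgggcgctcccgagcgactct
Srebf2, chr15:82147069-82147180, plus: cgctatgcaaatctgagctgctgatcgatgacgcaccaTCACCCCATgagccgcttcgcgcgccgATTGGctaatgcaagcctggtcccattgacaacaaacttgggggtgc
Lss, chr10:76531405-76531587, plus: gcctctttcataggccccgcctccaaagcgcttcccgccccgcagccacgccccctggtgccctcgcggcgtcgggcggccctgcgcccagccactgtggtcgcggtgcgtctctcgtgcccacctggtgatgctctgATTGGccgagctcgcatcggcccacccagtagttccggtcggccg
The sterol element of Hmgcs1 lay at -137 to -129, between CCAAT matches at -176 to -172 and -45 to -41. In Srebf2 the variant element lay at -162 to -154, with a CCAAT match at -135 to -131.

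The first question was in which cells of the SVF these genes were expressed. Of the 11 classes, only dendritic-like cells lay above all other cells in both libraries by the intervals of the summed genes. Summed over the 8 genes, they had 319 CPM (300.1 to 339) in the control and 279 CPM (248 to 313) in the KO library, a log2 ratio to all other cells of the same library of 0.60 (0.50 to 0.70) and 0.59 (0.41 to 0.78). Macrophage-like cells were below all other cells in both libraries, with 133 and 115 CPM and a log2 ratio to all other cells of -0.79 (-0.95 to -0.63) and -0.79 (-1.30 to -0.31). NK-like cells, at 108 and 141 CPM, and blood endothelial-like cells, at 170 and 139 CPM, were below the other cells in both libraries as well, as were T-like cells, at 193 and 111 CPM. The lowest class was NK-like in the control and T-like in the KO library. Fibroblast-like cells, the most numerous class with 900 control and 238 KO cells, had 223 CPM in either library. In the 16 neutrophil-like cells of both libraries no UMI of any member was seen, among 14621 and 29595 UMIs, which allows up to 3 UMIs in either.

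The order of cell types by Srebf2 is read by its ends. In it, 10 of 10 neighbours in the control and 9 of 10 in the KO library had overlapping intervals. Srebf2 was highest in dendritic-like cells, at 141 CPM (129 to 155) in the control and 146 CPM (124 to 172) in the KO library. All other cells had 69 and 57.5 CPM. B-like cells came second in the control, at 106 CPM. Blood endothelial-like cells had 23.1 and 12.4 CPM and macrophage-like cells 38.9 and 31.9 CPM, both below the rest in both libraries. The log2 ratio to the rest was -1.76 (-2.52 to -1.10) and -2.49 (-4.11 to -1.26) in endothelial-like cells. Insig1, whose protein restrains SREBP-2, did not follow this order. In endothelial-like cells it had 47.4 and 37.2 CPM and in macrophage-like cells 42.2 and 28.7 CPM, while it was above the rest in fibroblast-like cells in both libraries, with log2 ratios of 0.35 (0.17 to 0.53) and 0.75 (0.41 to 1.09). NK-like cells had the lowest Insig1 level of the 11 classes in both libraries, 8.75 and 15.3 CPM.

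Among the enzymes, Hmgcs1 was highest in pericyte and smooth muscle-like cells, at 77.1 CPM (66.4 to 89) and 52.5 CPM (33.7 to 78.2), with log2 ratios to the rest of 1.19 (0.95 to 1.41) and 0.83 (0.16 to 1.44). Sqle was above the rest in the same cells and in fibroblast-like cells in both libraries. Idi1 and Cyp51 were above the rest in dendritic-like cells, Idi1 at 38.6 and 37.1 CPM and Cyp51 at 41.4 and 30.2 CPM. In control pericyte and smooth muscle-like cells, Idi1 (0.75, 0.39 to 1.08) and Fdft1 (0.97, 0.47 to 1.43) were also above the rest. In these cells of the KO library, with 10 and 7 UMIs, their intervals included 0. By these intervals, the enzymes of this single pathway were not all above the rest in the same classes in both libraries. By level alone, Cyp51 was highest in monocyte-like cells of the control (57.4 CPM) and in B-like cells of the KO library (68.3 CPM). For each of these 6 enzymes, 10 of 10 neighbours in the order of levels over the classes had overlapping intervals in either library, so their orders are read by the ends only.

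Sqle was near absent from some classes. Mesothelial-like cells, which line the surface of visceral fat, held 1 Sqle UMI among 1404416 in the control (0.712 CPM, 0.018 to 3.97) and 0 among 297047 in the KO library, where a count of 0 allows up to 3 UMIs. All other control cells had 14.5 CPM, and the log2 ratio was -4.35 (-9.65 to -1.86). The same mesothelial-like cells had 46.3 and 50.5 CPM of Hmgcs1 and 16.4 and 20.2 CPM of Fdft1, the step just before Sqle. NK-like cells held 0 Sqle UMIs among 1029097 in the control and 1 among 326211 in the KO library. These near-empty classes also show how little Sqle RNA from other cells could have been counted there. Lss was highest in the ILC2-like cells of the control, at 21.3 CPM (13 to 32.8), with a log2 ratio to the rest of 1.82 (1.08 to 2.49). In the KO library it was 9.96 CPM (3.66 to 21.7) there and the interval of that ratio, 0.95 (-0.57 to 2.18), included 0.

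**Figure D1:**
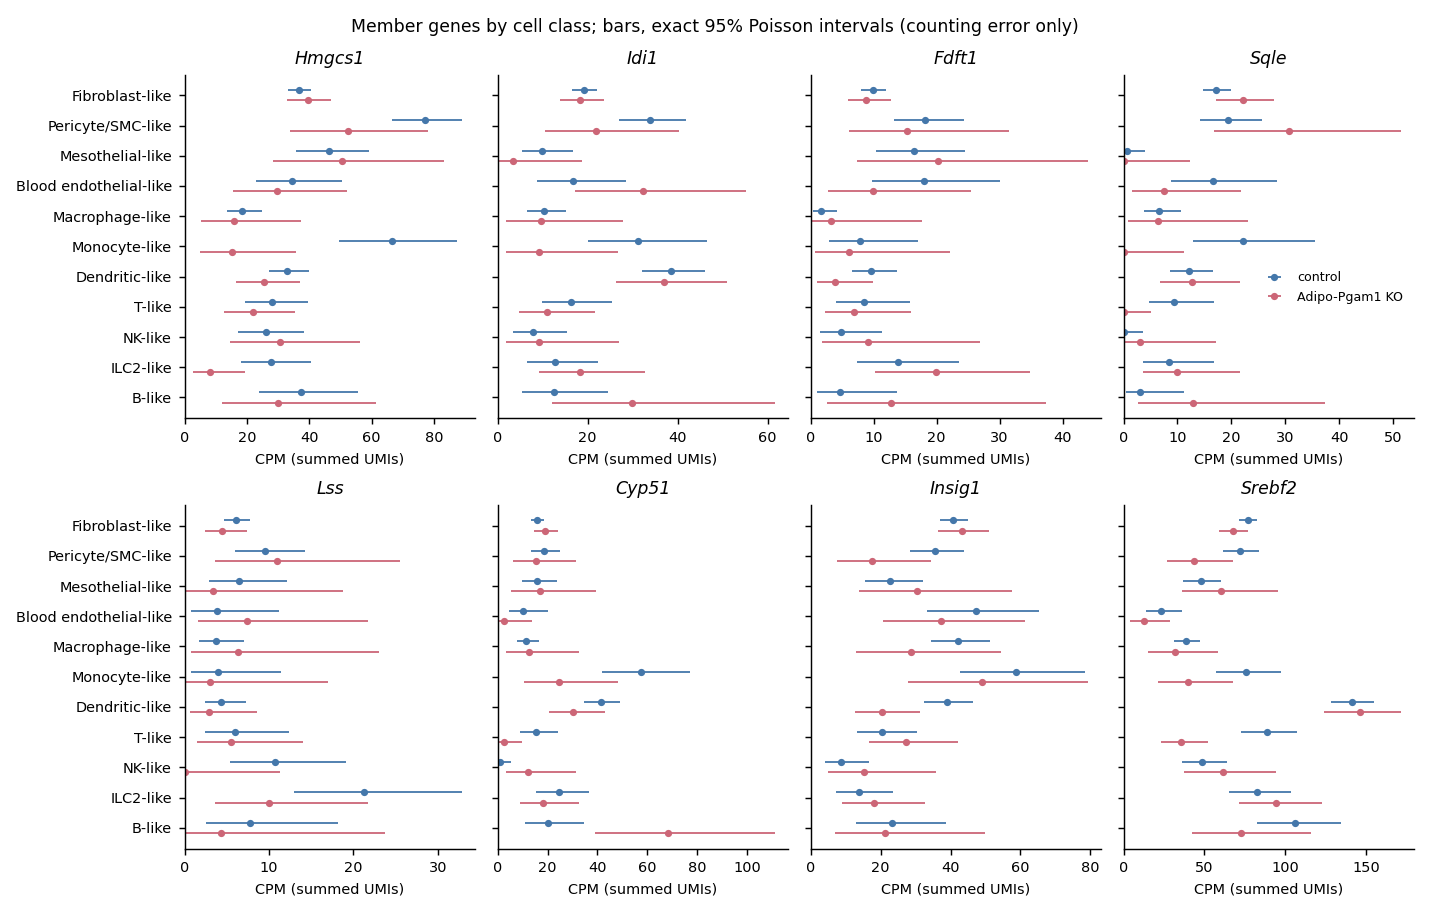
Level of each member in 11 cell classes, as CPM of summed UMIs on linear axes that differ between panels. Points are the control (blue) and the Adipo-Pgam1 KO library (red), 1 library each, and bars are exact 95% Poisson intervals. Srebf2 stands highest in dendritic-like cells in both libraries (141 and 146 CPM), and Sqle lies near 0 in mesothelial-like and NK-like cells.

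Within dendritic-like cells the enzymes split further. One cluster was led by Ccl17, Il4i1, Cd209c and Cd209a (187 control and 38 KO cells), genes of conventional type 2 dendritic cells, and the other by Xcr1 and Clec9a, markers of the cross-presenting type 1 cells. Of Idi1, the control held 118 UMIs (52 CPM) in the Cd209a cluster but 6 UMIs (6.35 CPM) in the Xcr1 cluster, which gave a log2 ratio of 3.03 (1.87 to 4.51). The same pair of KO clusters held 34 and 4 UMIs, 60.2 against 8.68 CPM, and the log2 ratio was 2.79 (1.31 to 4.75). The intervals of the clusters did not overlap in either library. Sqle was also higher in the Cd209a cluster, by 1.87 (0.38 to 3.82) and 3.29 (0.53 to 8.71) on the log2 scale, and Cyp51 by 1.23 (0.54 to 2.00) and 1.23 (0.02 to 2.60). Srebf2 went the other way, at 131 CPM in the Cd209a and 165 CPM in the Xcr1 cluster of both libraries, with a log2 ratio of -0.33 (-0.61 to -0.04) in the control and -0.33 (-0.81 to 0.15) among KO cells. In the control, the cluster with more Srebf2 RNA had less RNA of Idi1, Sqle and Cyp51. Lss was lower in the Cd209a cluster of the control, with 4 UMIs against 10 and a log2 ratio of -2.59 (-4.71 to -0.79), and too rare in the KO library for a ratio. Summed over the 8 genes, the Cd209a cluster had 336 and 314 CPM and the Xcr1 cluster 278 and 237 CPM, log2 ratios of 0.27 (0.07 to 0.48) and 0.41 (0.05 to 0.76).

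Clusters within fibroblast-like cells and beside the macrophage-like cluster also differed. In fibroblast-like cells, cluster 0, led by Bmper, Agt and Cxcl14, had 246 CPM summed over the members in the control and cluster 3, led by Islr2 and Pi16, a marker of early stromal progenitors, 183 CPM, a log2 ratio of 0.43 (0.29 to 0.56). Sqle differed most, at 21.1 against 10.9 CPM. In the KO library the summed levels were 229 and 202 CPM, and the interval of the ratio, 0.18 (-0.06 to 0.42), included 0. A cluster that stayed unnamed and was led by Lyz1 and Ear2 had 235 and 170 CPM, against 133 and 115 CPM in the macrophage-like cluster led by Cd209f and Folr2, log2 ratios of 0.82 (0.63 to 1.01) and 0.57 (0.03 to 1.14). In the control, Srebf2 had 73.6 against 38.9 CPM (0.92, 0.58 to 1.27), Cyp51 38.3 against 11.5 CPM (1.74, 1.15 to 2.38) and Fdft1 9.83 against 1.64 CPM (2.58, 1.11 to 4.53). In the KO library the intervals of these 3 genes included 0. These cluster pairs were chosen after their values were seen.

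**Figure D2:**
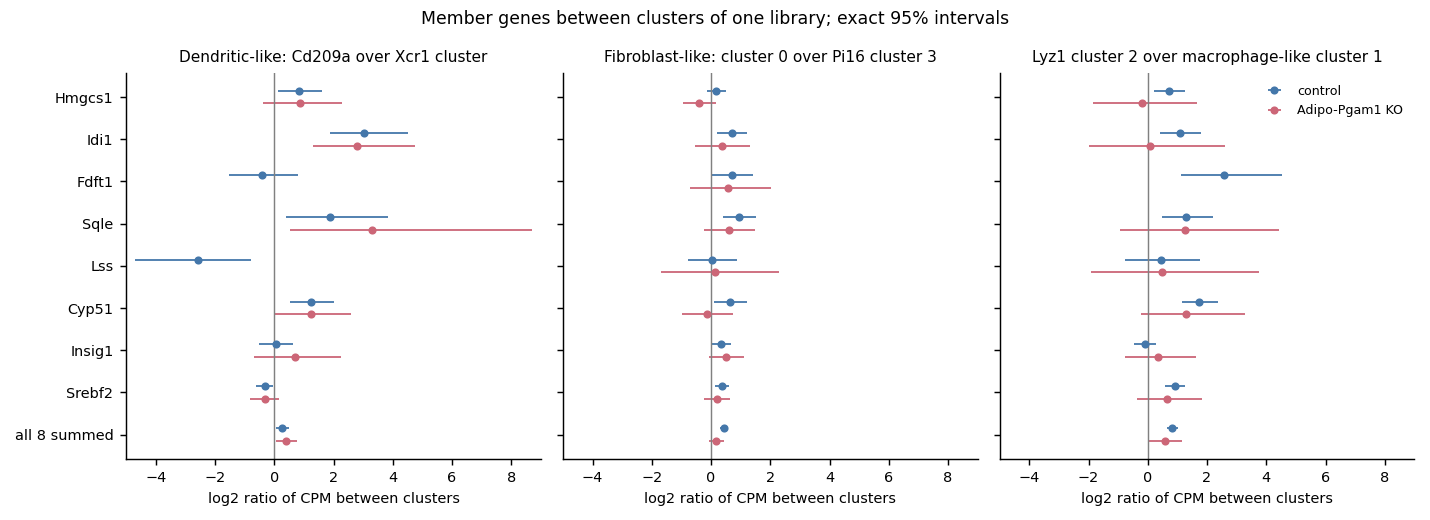
Log2 ratio of CPM between 2 clusters of the same library for each member and for all 8 summed, in 3 pairs of clusters (dendritic-like, fibroblast-like, and the Lyz1 cluster over the macrophage-like cluster). Blue points are control, red points KO, bars exact 95% intervals, and members with at most 3 UMIs in both clusters are not drawn. Idi1 lies at 3.03 and 2.79 in the dendritic-like pair, while Srebf2 lies at -0.33 in both libraries.

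The second question was whether the genes moved together from cell to cell, which the class levels do not show. In fibroblast-like cells, 251 of 900 control cells held at least 1 Hmgcs1 UMI. The other 7 members had 239 CPM in those cells and 160 CPM in the remaining 649, a log2 ratio of 0.58 (0.45 to 0.72). In the KO library 77 cells with and 161 without an Hmgcs1 UMI had 219.6 and 160.0 CPM, a log2 ratio of 0.46 (0.22 to 0.70). The intervals of 5 of the 7 lay above 0 in the control, for Cyp51 (1.27, 0.80 to 1.75), Idi1 (1.21, 0.78 to 1.63), Sqle (1.06, 0.61 to 1.51), Insig1 (0.44, 0.14 to 0.73) and Srebf2 (0.27, 0.05 to 0.48). Of all genes with at least 50 UMIs, 6.29% lay above 0 in that comparison. In the KO library 2 of the 7, Sqle (1.13, 0.41 to 1.87) and Idi1 (0.83, 0.04 to 1.63), lay above 0, while Lss, with 1 and 13 UMIs, lay below 0 (-3.07, -8.48 to -0.33). Of all genes with at least 50 UMIs, a minimum that 5 of the 7 passed, 6.3% lay above 0. Cells with an Hmgcs1 UMI were also deeper, with a median of 12882 UMIs against 10892 in the control and 17018 against 12838 in the KO library, and CPM takes this into account only as a scale. The fibroblast-like class also pools clusters that differed in the summed members in the control. The part of these clusters in the splits was not tested.

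Taking each member in turn as the gene that splits the cells gave intervals above 0 in both libraries for 7 of the 8. No share over all genes was computed for such splits or for such sums, so this count is a description only. Cells with a UMI of Fdft1 had 356 CPM of the other members in the control and cells without one 195 CPM (log2 ratio 0.87, 0.71 to 1.03). Idi1 gave 0.84 (0.70 to 0.98), Sqle 0.78 (0.63 to 0.92), Cyp51 0.75 (0.60 to 0.90), Insig1 0.57 (0.43 to 0.70) and Srebf2 0.34 (0.18 to 0.50), and in the KO library the intervals of these genes lay above 0 too. Lss did not, at 0.10 (-0.13 to 0.32) in the control and -0.28 (-0.78 to 0.18) among KO cells, from 57 and 12 cells with an Lss UMI. With so few such cells a small shared part was not detectable for Lss at this depth.

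**Figure D3:**
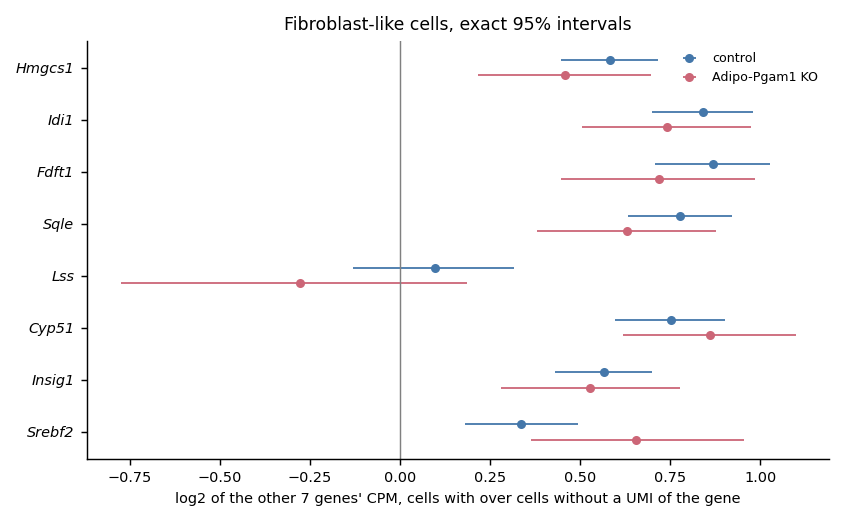
Log2 ratio of the summed CPM of the other 7 members in fibroblast-like cells with at least 1 UMI of the gene named on the vertical axis over cells without one. Blue points are control, red points KO, 1 library each, and bars are exact 95% intervals. The ratio lies between 0.34 and 0.87 for 7 genes in the control, and the interval of Lss includes 0 in both libraries.

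The third question was how the KO library compared with the control within each class. In fibroblast-like cells the 8 genes summed to 2207 UMIs, 223 CPM (213 to 232), in the control and to 706 UMIs, 223 CPM (207 to 239.9), in the KO library, a log2 ratio of 0.0014 (-0.12 to 0.12). The interval of 0 of the 8 members lay off 0, whereas among all genes with at least 50 UMIs in these cells 20.3% were lower and 9.15% higher in the KO library. Hmgcs1 had 36.7 and 39.5 CPM, Idi1 19.3 and 18.3 CPM, Insig1 40.9 and 43.2 CPM, and Srebf2 76.9 and 67.6 CPM. The largest of the 8 ratios were those of Lss (-0.45, -1.41 to 0.40) and Sqle (0.36, -0.07 to 0.77). Fibroblast-like cells with a UMI of Pi16 or Dpp4 had 191 and 218 CPM (0.19, -0.0031 to 0.38), and those without had 250 and 227 CPM (-0.14, -0.30 to 0.02). In the fibroblast-like subcluster ranked first by a short list of adipocyte genes, 213 control and 49 KO cells, the values were 258 and 237 CPM (-0.12, -0.39 to 0.14). Its mean z-score in control cells was 0.284 against 0.271 in the next subcluster, so the choice was close to a tie.

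The rest of the sterol pathway, 30 genes listed by role, was less even in the same fibroblast-like cells. Of the 15 other synthesis enzymes, 6 were below and 1 above the control, with a median log2 ratio of -0.03. Those below included Hsd17b7 (21.8 and 13.3 CPM, -0.72), Nsdhl (16.8 and 10.7 CPM, -0.65), Lbr (37.8 and 25.3 CPM, -0.58) and Sc5d (50.7 and 36.3 CPM, -0.48), which all work after lanosterol, on the way to cholesterol. The gene above was Fdps, encoding farnesyl diphosphate synthase, at 10.1 and 16.7 CPM (0.73, 0.22 to 1.22). Among the 10 genes of uptake and sterol movement, those below included Vldlr, encoding a lipoprotein receptor (237 and 168 CPM, -0.50, -0.63 to -0.36), and Npc2, encoding a lysosomal cholesterol carrier (324 and 353 CPM, 0.13, 0.03 to 0.23), was above. Of 5 genes of the SREBP machinery, Insig2 (-0.31), Mbtps1 (-0.33) and Mbtps2 (-0.49), of which the Mbtps genes encode the proteases that release SREBP, were below and Scap (0.02) and Srebf1 (-0.08) included 0. Among all genes with at least 20 UMIs, the minimum used for these lists, 18.9% were below and 9.11% above, with a median log2 ratio of -0.10.

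Neighbouring programs gave the contrast. Of 9 SREBP-1 fatty acid genes with enough UMIs, Acly (-0.39), Fads1 (-0.30) and Scd2 (-0.20) were below and 0 above. Of 5 genes activated by sterols through LXR, the nuclear receptor for oxysterols, Nr1h3 (-0.53, -0.79 to -0.28), which encodes LXR-alpha, and Abca1 (-0.26, -0.44 to -0.08), a cholesterol exporter, were below, while Apoe, the apolipoprotein, had 3665 UMIs, 370 CPM, in the control and 3429 UMIs, 1082 CPM, in the KO library (1.55, 1.48 to 1.62). In the same cells 7 of 8 immediate early genes were above, led by Atf3 (1.95, 1.56 to 2.33), and 5 of 6 heat shock genes were above. Schwann cell markers summed to 8.68 CPM in the control and 96 CPM in the KO library in these cells, and lymphatic endothelial markers to 8.07 and 37.9 CPM. Without the cells that held UMIs of at least 3 Schwann markers the summed ratio of the 8 members was -0.0021 (-0.13 to 0.12). The part of the other measures in the sterol values was not tested.

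Of the 11 classes, monocyte-like cells had the largest summed ratio in size. Their 117 control cells had 248 member UMIs, 323 CPM (284 to 366), and their 26 KO cells 48 UMIs, 147 CPM (108 to 194), a log2 ratio of -1.14 (-1.62 to -0.69). The intervals of 5 of the 8 members lay below 0, against 15.6% of all genes with at least 50 UMIs. Of the 4 members that passed that minimum, 3 were below. Hmgcs1 had 66.5 and 15.3 CPM (-2.12, -3.81 to -0.81), Cyp51 57.4 and 24.4 CPM (-1.23, -2.53 to -0.13) and Srebf2 75.6 and 39.7 CPM (-0.93, -1.92 to -0.04). Sqle had 17 control and 0 KO UMIs, at least 1.27 lower on the log2 scale with the KO count set to the limit of 3 UMIs. Idi1 had 24 and 3 UMIs (-1.77, -4.15 to -0.05). Insig1 was at 58.7 and 48.9 CPM, and its interval (-1.19 to 0.59) included 0.

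Several measures moved with the monocyte difference. A single control cell held 39 of the 248 UMIs, and without the cell with the most member UMIs in each library the log2 ratio was -1.003 (-1.51 to -0.52). Treml4 and Ace, markers of the non-classical patrolling state, had 372 and 746 CPM in the control and 128 and 324 CPM in the KO library, and Ly6c2, a marker of the classical state, 499 and 791 CPM. In cells with a UMI of Treml4 or Ace, 103 control and 14 KO, the log2 ratio was -0.66 (-1.32 to -0.05). In cells without, 14 control and 12 KO, it was -2.35 (-3.09 to -1.65), and the control cell with 39 UMIs was among these 14 and held 54.2% of their member UMIs. The median was 6275 UMIs per control cell and 12990.5 per KO cell, 5 of the 5 heat shock genes with at least 20 UMIs were above the control, and fibroblast markers, a trace of RNA from other cells, summed to 579 and 189 CPM against 43278 CPM in control fibroblast-like cells. Erythroid markers summed to 11280 CPM in the control and 647 CPM in the KO library. With each cell thinned to 2000 UMIs in 1 random draw, the log2 ratio was -1.31 (-2.56 to -0.26), still below 0. In another draw 113 control cells held 73 member UMIs and 26 KO cells held 3, so the thinned size rests on few KO UMIs. The part of the marker and heat shock differences in the result was not tested. Another choice of filter or clustering left no monocyte-like class in both libraries in 4 alternatives (the looser filter, no doublet removal, Leiden resolution 0.3 and separate clustering), and with a minimum of 1000 genes and a mitochondrial limit of 5% together, which kept 6 KO cells, the interval (-2.25 to 0.21) included 0.

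T-like cells, 249 control and 115 KO, had 193 CPM (169 to 220.0) and 111 CPM (88 to 138), a log2 ratio of -0.80 (-1.19 to -0.43). The intervals of 3 of the 8 members lay below 0, against 10.1% of all genes with at least 50 UMIs, a minimum that 1 member, Srebf2, passed. Srebf2 had 104 UMIs, 88.9 CPM (72.6 to 108), in the control and 26 UMIs, 35.6 CPM (23.2 to 52.1), in the KO library, so that the intervals did not overlap (-1.32, -2.001 to -0.69). Cyp51 had 18 and 2 UMIs (-2.49, -5.64 to -0.43). Sqle had 11 and 0 UMIs, at least 1.20 lower on the log2 scale at the limit of 3 UMIs. Hmgcs1 (-0.37, -1.33 to 0.54) and Insig1 (0.42, -0.52 to 1.33) included 0. The summed ratio was -0.74 (-1.17 to -0.32) in the cluster led by Cd8b1 and Cd8a and -1.03 (-1.96 to -0.20) in the cluster led by Cd163l1 and Il23r, genes of gamma delta T cells. In cells with a UMI of Cd8a or Cd8b1 it was -0.32 (-1.08 to 0.42) and in the others -0.95 (-1.41 to -0.51). When each cell was thinned to 2000 UMIs the summed ratio was -0.27 (-0.95 to 0.37), which included 0. In another random draw of 2000 UMIs per cell, the 8 members held 91 UMIs in 242 control cells and 26 in 106 KO cells. Srebf2 stayed apart in that draw, with 46 control and 4 KO UMIs. It was found in 15.7% (11.4 to 20.9) of the control and 3.77% (1.04 to 9.38) of the KO cells. The intervals of these shares, exact binomial at 95%, did not overlap. Other measures moved with the T-like difference. Erythroid markers summed to 1441 and 5739 CPM and fibroblast markers to 534 and 197 CPM, and the summed heat shock genes had a log2 ratio of 0.88 (0.68 to 1.09). Foxp3, which marks regulatory T cells, had 28 control and 0 KO UMIs, and Cd4 had 124 and 168 CPM (0.44, 0.08 to 0.80). Their part in the result was not tested.

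Pericyte and smooth muscle-like cells had 284 CPM (263 to 306) in 298 control and 208 CPM (168 to 254) in 41 KO cells, a log2 ratio of -0.45 (-0.77 to -0.14), and 1 of the 8 members, Srebf2 (72.1 and 43.8 CPM, -0.72, -1.47 to -0.05), lay below 0, against 10.6% of all genes with at least 50 UMIs. The class held 3 clusters in different shares. The summed ratio was -0.68 (-2.15 to 0.46) in the cluster led by Gipr and Kcnj8, with 125 and 7 cells, 0.14 (-0.32 to 0.58) in that led by Kcnk3, with 93 and 14 cells, and -0.96 (-1.49 to -0.46) in that led by Tenm2, with 80 and 20 cells. The direction in this class differed between clusters, and with a minimum of 1000 genes and a mitochondrial limit of 5% together, which kept 8 KO cells, the ratio was 0.39 (-0.20 to 0.95). With each cell thinned to 2000 UMIs the ratio was -0.84 (-1.93 to 0.07).

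In dendritic-like cells the summed ratio was -0.20 (-0.39 to -0.0047), and edgeR's TMM scaling moved its upper bound to 0.03. Thinned to 2000 UMIs per cell it was -0.41 (-1.04 to 0.17). Insig1 was the 1 of 8 below 0, at 38.9 CPM (32.4 to 46.4) and 20.5 CPM (12.7 to 31.3) (-0.93, -1.67 to -0.25), against 11.3% of all genes with at least 50 UMIs. Srebf2 stood at 141 and 146 CPM in these cells. In ILC2-like cells Hmgcs1 was the 1 of 8 below 0, with 26 and 5 UMIs, 27.6 and 8.3 CPM (-1.74, -3.47 to -0.33), and the summed ratio was -0.05 (-0.40 to 0.28). Of all genes with at least 50 UMIs in that class, a minimum Hmgcs1 did not reach, 11.7% were below. Mast cell markers summed to 891 CPM in the control and 7068 CPM in the KO library in ILC2-like cells, and their part in this value was not tested. Cyp51 was the 1 of 8 above 0 in NK-like cells, with 1 and 4 UMIs (3.66, 0.32 to 9.28), and in B-like cells, with 13 and 16 UMIs, 20.3 and 68.3 CPM (1.75, 0.60 to 2.93). Of all genes with at least 50 UMIs, a minimum Cyp51 did not reach in either class, 6.39% were above in NK-like and 7.8% in B-like cells. Both Cyp51 ratios fell within the counting error when the cell with the most member UMIs was left out of each library. In mesothelial-like (0.16, -0.29 to 0.59), blood endothelial-like (-0.29, -0.77 to 0.17) and macrophage-like cells (-0.22, -0.76 to 0.28) the summed intervals included 0. Across the 88 ratios of 8 genes in 11 classes, 11 lay below 0, 2 above 0 and 69 included 0, and 6 had at most 3 UMIs in both libraries and gave no ratio.

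**Figure D4:**
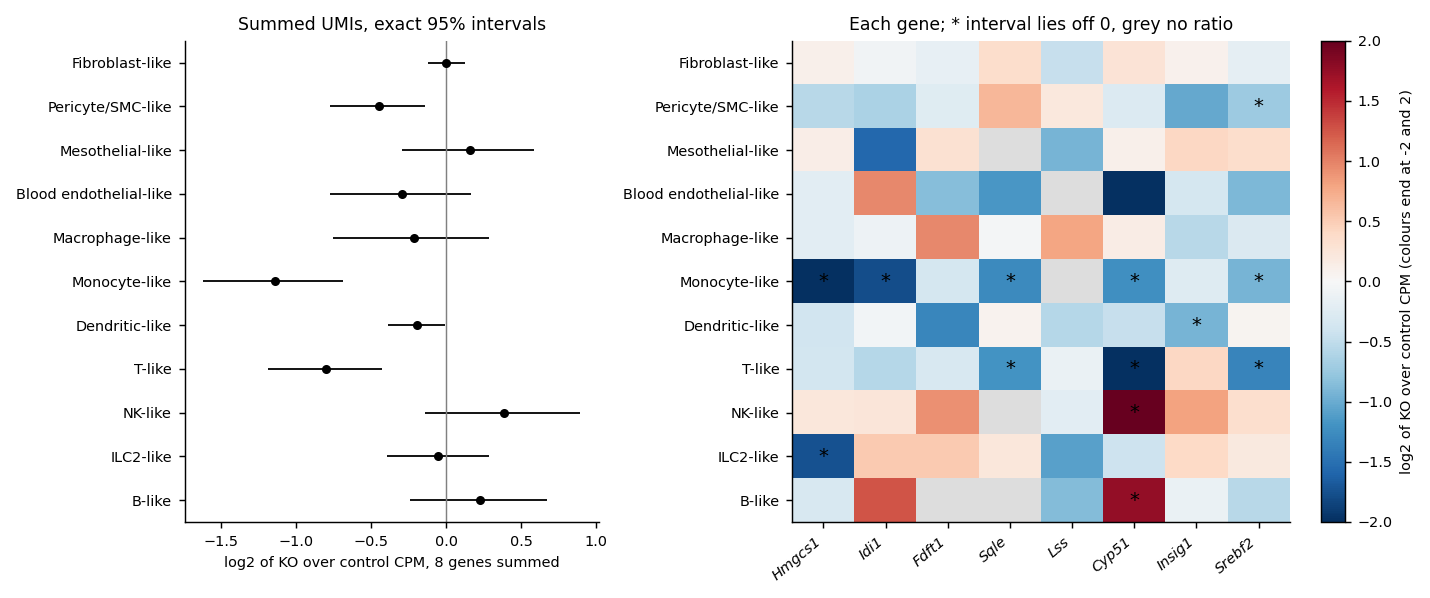
Left, log2 ratio of KO over control CPM of the 8 members summed in each cell class, with exact 95% intervals. Right, the same ratio for each member as colour (log2 scale, ending at -2 and 2), where stars mark intervals that lie off 0, grey marks at most 3 UMIs in both libraries, and a count of 0 against more than 3 is set to the limit of 3 UMIs. Monocyte-like (-1.14) and T-like cells (-0.80) lie farthest to the left, and fibroblast-like cells lie at 0.0014.

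The genes outside the lists whose profile over the 13 named classes of the control was most like the mean of the members were Cluh (Pearson's r = 0.91), Mpc2 (0.90), Tmem219 (0.89), Atp5c1 (0.88) and Snhg6 (0.87), out of 7932 genes with at least 500 UMIs. In the KO library the same correlations were 0.66, -0.13, 0.03, 0.29 and 0.86, so Snhg6 and to a lesser degree Cluh kept the likeness in the other library. The points are classes of 1 library that share its depth, and the values are a description. They include neutrophil-like cells (7 control and 9 KO cells), in which no member UMI was seen, and lymphatic endothelial-like cells (56 and 12). Both classes miss the cell minimum used for the comparisons above, and their part in the correlations was not tested. Among the members themselves, the profile of Idi1 was most like that of the other members (r = 0.92 for control and 0.73 for KO cells), and that of Lss least in the control (0.32).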

How the data were processed

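Single-cell RNA sequencing of gWAT SVF was used, with 1 library for each genotype. Per the labels, the authors aligned 10x Genomics 3′ reads to mm10 and counted with Cell Ranger 3.0.1. The deposited values are whole-number UMI counts per gene and barcode without normalization (42859406 UMIs in 8522 control and 13821581 in 2730 KO barcodes). The submitters' notes also name Seurat 3.1.5 and R 4.0.1. The members, lists and classes were chosen with earlier results of these data known. Values of some genes of the lists are not reported here.

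Barcodes below 500 genes or above 10% mitochondrial UMIs were dropped, which left 3881 control and 958 KO barcodes. The 265 control and 21 KO barcodes with the highest Scrublet scores (0.8% per 1000 barcodes) were removed. The cells were clustered with scanpy 1.11.5 (2000 variable genes without 54 sterol and lipid genes, 30 components, 20 neighbours, Leiden resolution 0.5). Of 24 clusters, 19 took a class name when the mean z-score over a class's markers passed 0.5 and the next class by 0.75, and 5 stayed unnamed. Counts were added up within each class and library. CPM have Poisson intervals and ratios conditional binomial intervals, exact at 95%. The ratio code was tested on simulated data. A count of 0 was set to 3 UMIs for limits. With 1 library a group no p-value was computed. Named genes are the 8 members, genes of the sterol lists with at least 20 UMIs whose interval lay off 0 in fibroblast-like cells, Pgam1, and the 5 genes most like the members in log2(CPM + 10).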

Additional observations from a re-analysis of the deposited data

Results flagged for a closer look

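Cyp51, encoding the lanosterol demethylase, moved in opposite directions between cell classes. Its log2 ratio of KO over control CPM was -1.23 in monocyte-like and -2.49 in T-like cells, but 3.66 in NK-like and 1.75 in B-like cells. The difference between classes was not tested, since each genotype had 1 library. The NK-like value rests on 1 control and 4 KO UMIs. Both the NK-like and the B-like ratio fell within the counting error when the cell with the most member UMIs was left out of each library. No other member had intervals on both sides of 0.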

How the results depend on the processing

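Across 15 alternatives listed at the start and 16 chosen after seeing the data, 237 values were recomputed. Of these, 205 lay within the main counting interval or within 1.5 times the main count. Not all of the 205 kept their sign. For fibroblast-like cells the log2 ratio was 0.0014 in the main setting and -0.018 without doublet removal, still within the main interval. No paired analysis was possible because each genotype had 1 library. All log2 ratios here are KO over control CPM of the summed members unless stated, and the causes were not tested.

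With a minimum of 1000 genes and a maximum of 5% mitochondrial UMIs, the pericyte and smooth muscle-like ratio reversed to 0.39 and the NK-like ratio moved to -0.47, and no T-like, ILC2-like or B-like class was named. In the cluster led by Kcnk3 alone the pericyte ratio reversed to 0.14, and in that led by Tenm2 it was -0.96. When the libraries were clustered separately the pericyte ratio was -1.01 and the macrophage-like ratio 0.43 (0.19 to 0.67), and no KO monocyte-like class was named. Thinned to 2000 UMIs per cell in 1 random draw, it was -0.84 for pericyte and smooth muscle-like and -0.79 for mesothelial-like cells. In the same draw it was -0.41 for dendritic-like, -0.27 for T-like and -0.43 for B-like cells. Another draw gave mesothelial-like cells 25 member UMIs in 95 control and 7 in 17 KO cells, a higher level in the KO library. Of the classes named here, only mesothelial-like cells changed direction between the draws. These thinned values therefore hold the noise of the draw. The ratio was 0.15 in fibroblast-like cluster 3 (Pi16) and 0.66 in cluster 10 (Apod) alone, -0.66 and -2.35 in monocyte-like cells with and without Treml4 or Ace (in the latter 1 control cell held 54.2% of the control member UMIs), and -0.32 in T-like cells with Cd8a or Cd8b1.

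The 11 gene ratios below 0 became 5 with a minimum of 200 genes and a maximum of 20% mitochondrial UMIs, 2 with the stricter filter, 5 without doublet removal, 6 at Leiden resolution 0.3, 2 after thinning and 3 without the 5% of cells with the most member CPM. The looser filter, no doublet removal and resolution 0.3 left no monocyte-like class, which holds 5 of the 11. The 2 ratios above 0 became 4 with separate clustering, 0 after thinning, 1 without the 5% of cells and 0 without the cell with the most member UMIs. Over other control cells, dendritic-like cells stood at 0.35 (looser filter), 0.49 (stricter filter) and 0.34 (resolution 0.3), and pericyte and smooth muscle-like cells at 0.26 (looser filter), all still above 0. The dendritic-like class held 259 control cells in the main setting but 81 with the looser filter and 72 at resolution 0.3. The 72 control and 26 KO cells at resolution 0.3 are as many as in the Xcr1 cluster. These values therefore describe other sets of cells than the main class. At a fold size of 2 instead of 1.5, 1.74% of genes were lower and 1.41% higher in KO fibroblast-like cells, against 7.49% and 3.98%. Depth limits the rare members most: 6 of the 88 ratios had at most 3 UMIs in both libraries.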

Other observations

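A cluster that stayed unnamed, led by the NK receptor genes Klra1 and Klra6 with Cd160 and Xcl1 (95 control and 37 KO cells), had 165 CPM of the 8 members in the control and 73.3 CPM in the KO library, a log2 ratio of -1.18 (-2.06 to -0.38). Srebf2, encoding SREBP-2, had 71.2 and 18.3 CPM there (-1.96, -3.92 to -0.46). The unnamed cluster led by Lyz1 and Ear2 (289 control and 61 KO cells) had 235 and 170 CPM (-0.47, -0.74 to -0.20). In that cluster Hmgcs1 had 30.3 and 13.8 CPM (-1.13, -2.17 to -0.24), Idi1 21.8 and 10.1 CPM (-1.11, -2.37 to -0.07) and Srebf2 73.6 and 50.3 CPM (-0.55, -1.06 to -0.07), while Insig1 had 39.9 and 36.5 CPM and Sqle 16.2 and 15.1 CPM, with intervals that included 0. These clusters were chosen after their values were seen, and the intervals cover counting error only. The share of all genes below 0 was not computed for these clusters, so the members cannot be set against it.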
